A study of Homo sapiens with 6 samples.

Results

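The genes described here are CIITA and 9 genes of the MHC class II pathway: CD74, HLA-DRA, HLA-DRB1, HLA-DPA1, HLA-DPB1, HLA-DQA1, HLA-DQB1, HLA-DMA and HLA-DMB. They were chosen by symbol, and all 10 were found among the 25277 gene rows of the deposited table. MHC class II molecules are pairs of an alpha and a beta chain on the surface of B cells and other antigen-presenting cells, where they show peptides to CD4+ T cells. CIITA does not bind DNA by itself. It is recruited to class II promoters by factors that sit on short elements called the X box and the Y box, and its level is widely regarded as the switch for class II transcription. The invariant chain, encoded by CD74, escorts new class II pairs to endosomes, and the HLA-DM pair helps to load peptide there.

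The libraries were made from Jeko and Rec-1, established human B-cell lines that derive from mantle cell lymphoma. All cells carried a tet-on CRISPR/Cas9 vector and had received doxycycline for 48 h. In each line 1 library came from cells with the empty vector (control), 1 from cells with sgRNA 1 against NR4A1, a nuclear receptor gene, and 1 from cells with sgRNA 2, giving 6 libraries. The labels describe stable lines and do not say whether they are clones or pools. They also do not say that the libraries of a line came from separate cultures, so p-values measure only the spread between these libraries, which may be technical. Values are FPKM, fragment numbers scaled for transcript length and library size, and depth as a number of fragments is unknown.

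Facts of the libraries bear on what follows. The targeted gene, NR4A1, had 5.99 FPKM in the Jeko control, 3.89 and 4.44 in the Jeko sgRNA libraries, 11.6 in the Rec-1 control, 27.4 in the library labelled Rec-1 sgRNA 1 and 12.7 in the library labelled Rec-1 sgRNA 2, so neither of the latter was below its control. The library labelled Rec-1 control correlated with the Jeko control at r = 0.9893 across 9702 protein-coding genes. Its r with Rec-1 sgRNA 1 was 0.8051 and with Rec-1 sgRNA 2 it was 0.8119. Every difference from the Rec-1 control below rests on that library, whereas the comparison of lines uses the 4 sgRNA libraries alone. All 6 B-cell markers checked were above 1 FPKM in each library, with a summed level of 584 to 1032 FPKM. CCND1, the cyclin gene that marks mantle cell lymphoma, had 442 to 815 FPKM in the Jeko libraries and the Rec-1 control, and 0.696 and 0.592 FPKM in Rec-1 sgRNA 1 and 2.

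The X and Y boxes can be read in RefSeq promoter windows of GRCh38.p14, from 250 bases before to 50 bases after the start of a gene. The table held 8 of the 10 genes, in 9 windows. CIITA and HLA-DRA had no window and were not searched. Both strands were searched for the X box core GNNACNNAT, for the Y box ATTGG, whose other strand reads as CCAAT, and for a core followed on the same strand by the Y box with 15 to 30 bases between them, and the elements do not overlap in such a pair. The X core alone was found in 6 of the 8 genes and in 22.1% of all 35116 windows. The Y box alone was found in 7 of the 8 and in 34.6% of windows. The pair was found in HLA-DRB1, HLA-DQB1 and HLA-DMA, 3 of the 8, and in 0.367% of all windows. HLA-DRB5, a paralogue of HLA-DRB1 that is described further below, held it too. These 4 stretches are shown because they hold letters that match both boxes at the spacing searched. They run 5′ to 3′ on the gene's strand, which is the minus strand, with the X core and the Y box in capitals. They lie at chr6:32589880-32589936 (HLA-DRB1), chr6:32666731-32666787 (HLA-DQB1), chr6:32953162-32953219 (HLA-DMA) and chr6:32530363-32530419 (HLA-DRB5).
HLA-DRB1: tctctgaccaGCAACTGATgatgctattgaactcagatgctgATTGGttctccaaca
HLA-DQB1: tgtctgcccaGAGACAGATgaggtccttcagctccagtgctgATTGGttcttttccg
HLA-DMA: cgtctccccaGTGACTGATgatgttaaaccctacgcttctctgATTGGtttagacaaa
HLA-DRB5: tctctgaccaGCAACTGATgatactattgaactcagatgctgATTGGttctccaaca

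The spacing was 23 bases in HLA-DRB1, HLA-DQB1 and HLA-DRB5 and 24 in HLA-DMA. The core began 78 bases before the start of HLA-DRB1, 120 before HLA-DQB1, 112 before HLA-DMA and 122 before HLA-DRB5. The HLA-DRB1 and HLA-DRB5 stretches were identical at 56 of 57 bases (98.2%), and those of HLA-DRB1 and HLA-DQB1 at 38 of 57 (66.7%). A match is a description of letters and not a measured binding site. No relation of the pair to expression was tested. HLA-DMA, with a pair, was listed at 0 FPKM in all libraries, a value on which no statement about its expression rests, as described below. HLA-DQA1, whose window held no pair that matched the letters and spacing searched, was among the members that could be tested.

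Of the 10 genes, 5 could not be followed, because its values were at or near 0. HLA-DPA1 (chr6:33032346-33048552, minus strand, in GRCh37) and HLA-DPB1 (chr6:33043767-33057473, plus strand), the HLA-DP pair, were listed at 0 in all 6 libraries. So were HLA-DMA (chr6:32916390-32936871, minus strand) and HLA-DMB (chr6:32902406-32908805, minus strand). HLA-DRA (chr6:32407655-32412823, plus strand) encodes the alpha chain that pairs with every HLA-DR beta chain. It was listed at 0 in the Jeko control and all 3 Rec-1 libraries, at 0.0411 FPKM in Jeko sgRNA 1 and at 0.162 FPKM in Jeko sgRNA 2. The ratio of the latter values was 3.956. The commonest ratio among 805 genes of very low FPKM in the same libraries was 0.791, shared by 32.4% of them, as genes with a single fragment in both would show. The HLA-DRA ratio is 5 times that value, as a single fragment in Jeko sgRNA 1 and 5 in Jeko sgRNA 2 would give. Rec-1 sgRNA 1 shared no such ratio with any library. In its pairs the commonest ratio held for 0.712% to 1.15% of low genes, against 29.9% to 42% in all other pairs. The reason was not tested, and this library is on the Rec-1 side of the line comparison below. The remaining 5 members had a mean of at least 1 FPKM and were tested.

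The zeros were not particular to class II genes. Between the genes ZSCAN12 and BAK1 (chr6:28367525-33540323 in GRCh37), bounds set around the MHC after its values had been seen, 144 of 164 protein-coding genes (87.8%) were listed at 0 in all 6 libraries. The share was 18% of 735 genes elsewhere on chromosome 6 and 18.5% of 17701 genes outside the region. All 15 genes of the region that were picked, with values known, as genes used by most cells or by antigen presentation were at 0, among them RPS18, a ribosomal protein gene, TUBB, a tubulin gene, and the peptide transporter genes TAP1 and TAP2. Outside the region 2 of 81 genes named RPL or RPS (2.47%) were at 0. Only 7 genes of the region reached a mean of 1 FPKM, and the class II genes among them were HLA-DRB1, HLA-DRB5, HLA-DQA1 and HLA-DQB1. The bounding genes themselves had means of 2.95 FPKM (ZSCAN12) and 16.7 FPKM (BAK1). HLA-DRB3 had up to 31.2 FPKM although the GRCh37 chromosome annotation used here has no entry for it. How fragments that match several places were counted is not given in the sources used here, and its part in the zeros was not tested. A value of 0 is therefore given only as listed at 0, and no statement is made on the expression of HLA-DRA, HLA-DPA1, HLA-DPB1, HLA-DMA or HLA-DMB.

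**Figure D1:**
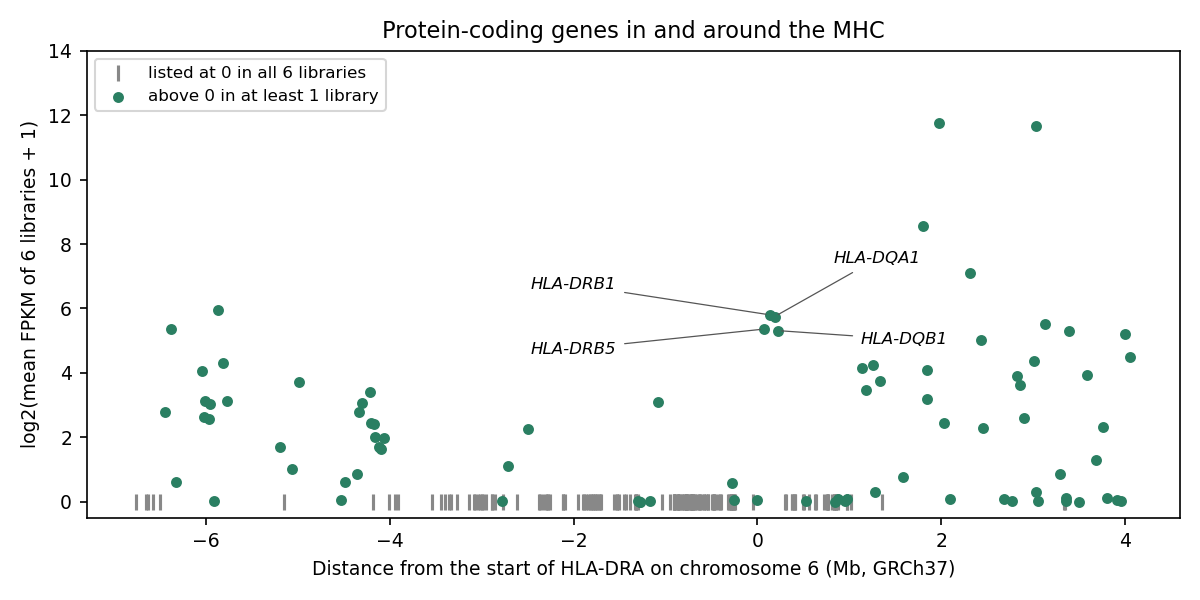
Mean FPKM of the 6 libraries, as log2(mean FPKM + 1), of protein-coding genes in and around the MHC, against distance in Mb from the start of HLA-DRA on chromosome 6. Grey bars are genes listed at 0 in all 6 libraries and green points are genes above 0 in at least 1. The class II genes of the region with a mean of at least 1 FPKM are named, and genes on both sides of the region show higher values again.

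CD74 (chr5:149781200-149792532, minus strand), outside the MHC, had by far the highest FPKM of the 5 tested members. Its FPKM were 2444 in the Jeko control, 3022 in Jeko sgRNA 1, 2015 in Jeko sgRNA 2, 1730 in the Rec-1 control, 1533 in Rec-1 sgRNA 1 and 892 in Rec-1 sgRNA 2. Every Jeko library was above every Rec-1 library. CD74 ranked between 46 and 95 among protein-coding genes by FPKM in the 6 libraries. FPKM is per transcript length, so listed values of different genes can be set side by side, although those of HLA genes are uncertain, as described below. CD74 was 15.7 to 60.8 times HLA-DRB1 within a library, with the highest ratio in Jeko sgRNA 1 and the lowest in Rec-1 sgRNA 2.

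CIITA (chr16:10960079-11036878, plus strand) was the least abundant of the 5 tested members. It had 14.9 FPKM in the Jeko control, 17.8 in Jeko sgRNA 1, 13.0 in Jeko sgRNA 2, 12.4 in the Rec-1 control, 6.86 in Rec-1 sgRNA 1 and 5.54 in Rec-1 sgRNA 2. The Rec-1 sgRNA libraries were the low ones, and the Rec-1 control was close to the Jeko libraries. CD74 was 139 to 224 times CIITA in all libraries, and both genes were lowest in Rec-1 sgRNA 1 and 2.

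HLA-DQA1 (chr6:32595956-32614839, plus strand), the HLA-DQ alpha chain gene, had 54.2 FPKM in the Jeko control, 70.0 in Jeko sgRNA 1, 76.8 in Jeko sgRNA 2, 47.4 in the Rec-1 control, 32.5 in Rec-1 sgRNA 1 and 36.0 in Rec-1 sgRNA 2. The Jeko sgRNA libraries were the highest and the Rec-1 sgRNA libraries the lowest. HLA-DQB1 (chr6:32627244-32636160, minus strand), the gene of its beta-chain partner, had 32.4, 33.4 and 43.6 FPKM in the Jeko control, sgRNA 1 and sgRNA 2, and 44.7, 42.4 and 35.9 FPKM in the same order in Rec-1. Its lines overlapped. The ratio of HLA-DQA1 to HLA-DQB1 was therefore 1.67, 2.10 and 1.76 in the Jeko control, sgRNA 1 and sgRNA 2, and 1.06, 0.766 and 1.00 in the Rec-1 libraries in that order, without overlap between the lines.

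HLA-DRB1 (chr6:32545679-32557625, minus strand), the main HLA-DR beta chain gene, had 62.6 FPKM in the Jeko control, 49.7 in Jeko sgRNA 1, 47.8 in Jeko sgRNA 2, 52.4 in the Rec-1 control, 59.0 in Rec-1 sgRNA 1 and 56.8 in Rec-1 sgRNA 2. It varied least of the 5 tested members, and its lines overlapped. In order of mean FPKM over the 6 libraries the 5 tested members ran from CD74 through HLA-DRB1, HLA-DQA1 and HLA-DQB1 to CIITA. The ranges of HLA-DRB1, HLA-DQA1 and HLA-DQB1 over the libraries were 47.8 to 62.6, 32.5 to 76.8 and 32.4 to 44.7 FPKM, so HLA-DQA1 overlapped both of its neighbours in this order. HLA genes differ between people and between lines, and fragments of one paralogue or allele can be assigned to another, so the levels of all HLA genes here are uncertain to an extent that was not tested.

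**Figure D2:**
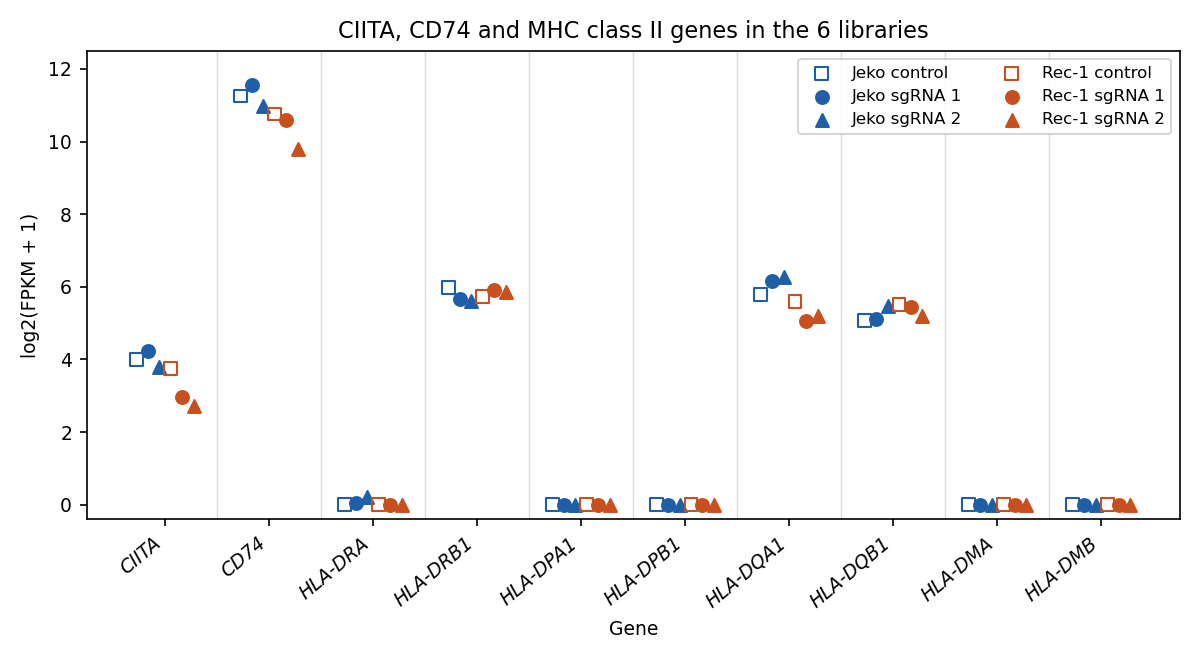
log2(FPKM + 1) of each of the 10 genes in each of the 6 libraries, with Jeko in blue and Rec-1 in orange, open squares for controls, circles for sgRNA 1 and triangles for sgRNA 2. CD74 is highest in every library, the Rec-1 sgRNA points of CIITA lie below its other points, and 5 genes sit at or near 0.

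The first comparison set the labelled lines against each other with the sgRNA present in both, with the 2 Rec-1 sgRNA libraries set against the 2 Jeko sgRNA libraries. CIITA and HLA-DQA1 were lower in the Rec-1 libraries and passed the test, with FPKM means at 0.40 and 0.47 times those in Jeko. HLA-DRB1 and HLA-DQB1 showed no difference that passed it, and CD74 was at 0.48 times without passing. Differences are on the log2(FPKM + 1) scale, which understates changes of low values, and were tested with limma over 11400 genes of at least 1 FPKM on average, with Benjamini-Hochberg adjustment and a threshold of 0.05. CIITA differed by -1.18 (SE 0.24, 95% interval -1.85 to -0.51, limma adjusted p = 0.0374). HLA-DQA1 differed by -1.08 (SE 0.17, interval -1.55 to -0.61, limma adjusted p = 0.0207). CD74 differed by -1.08 with a wider error (SE 0.37, interval -2.10 to -0.06, limma adjusted p = 0.107). HLA-DRB1 differed by 0.24 (SE 0.16, interval -0.19 to 0.68, limma adjusted p = 0.316) and HLA-DQB1 by 0.03 (SE 0.22, interval -0.58 to 0.64, limma adjusted p = 0.932).

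Among all 11400 genes, 25.7% passed this test, 12.6% as higher and 13.1% as lower in Rec-1. The 2 pairs of sgRNA libraries thus differed widely, and 2 of 5 members, both lower, is to be read against that share. The controls of the lines differed by less, by -0.24 for CIITA and -0.19 for HLA-DQA1 (Rec-1 minus Jeko, 1 library each). The members' median difference was -1.08, against -0.03 over all genes tested. Each fit that left out 1 of the 4 libraries kept the sign of CIITA (-1.39 to -0.96, limma adjusted p = 0.091 to 0.168) and of HLA-DQA1 (-1.15 to -1.01, limma adjusted p = 0.0884 to 0.113), and neither passed in any of the 4. In bulk RNA, fewer cells with a transcript and less of it per cell cannot be told apart.

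Markers of other cells and stages moved with this comparison. Of 4 plasma cell markers 3 passed as lower in the Rec-1 sgRNA libraries, SDC1, IRF4 and PRDM1, where 13.1% of all genes did. The other, XBP1, lay on the higher side without passing (difference 0.74, limma adjusted p = 0.373). The 4 together had 166.5 and 313.7 FPKM in Jeko sgRNA 1 and 2 and 193.8 and 243.7 FPKM in Rec-1 sgRNA 1 and 2. SDC1, a surface proteoglycan gene, had 23.7 and 16.7 FPKM in Jeko sgRNA 1 and 2 and 1.22 and 1.86 FPKM in Rec-1 sgRNA 1 and 2 (difference -3.05, limma adjusted p = 0.00459). The summed level of 4 T-cell markers was 2.11 to 5.44 FPKM in the Jeko libraries and the Rec-1 control and 102 and 120 FPKM in Rec-1 sgRNA 1 and 2. CD3D made up most of it, with at most 0.438 FPKM in the first 4 libraries and 66.3 and 95.3 FPKM in the last pair, and CD3E and CD3G were higher there too, whereas CD2 was at most 0.0291 FPKM in every library. The sum of 6 markers of monocytes, macrophages and dendritic cells was 0.481 to 1.16 FPKM in the first 4 libraries and 4.98 and 8.07 FPKM in Rec-1 sgRNA 1 and 2, mostly from ITGAX, with CD14 at most 0.0531 FPKM and FCER1A at 0. The part of these genes, and of the CCND1 difference given above, in the CIITA and HLA-DQA1 results was not tested.

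**Figure D3:**
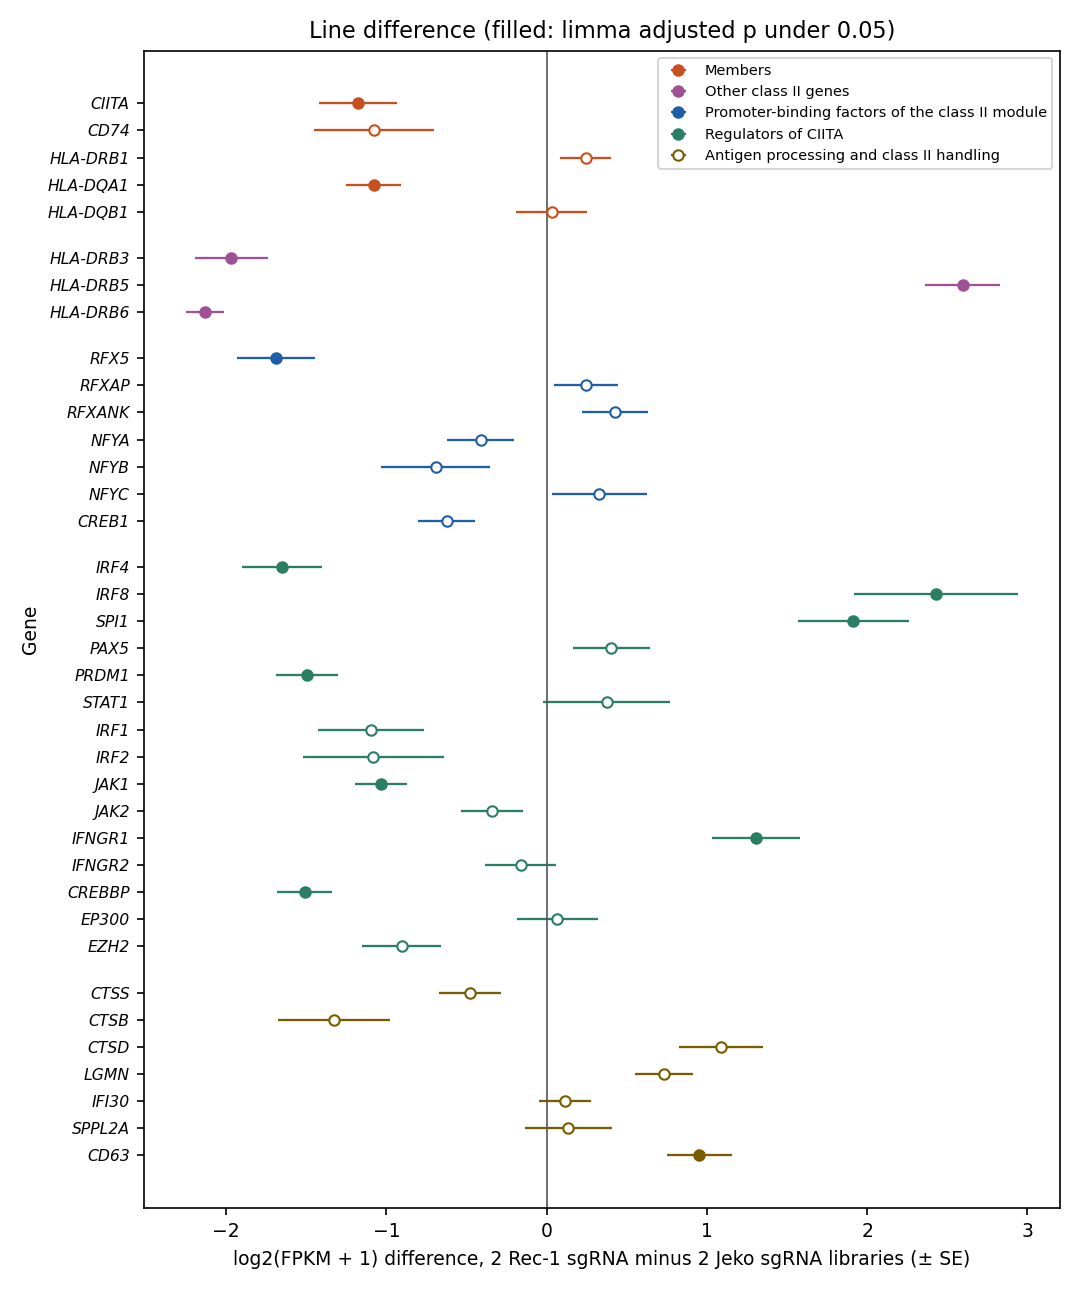
Difference in log2(FPKM + 1) between the 2 Rec-1 sgRNA and the 2 Jeko sgRNA libraries, with its standard error as bars, for the tested members and the tested genes of 4 related lists, coloured by list. Filled points passed limma's adjusted p of 0.05. CIITA and HLA-DQA1 are filled and lie near -1, HLA-DRB5 lies at 2.597, and HLA-DRB3 and HLA-DRB6 lie near -2.

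The tested class II genes outside the set showed larger line differences than any tested member. Of 9 listed, HLA-DOA, HLA-DOB, HLA-DRB4, HLA-DQA2, HLA-DQB2 and HLA-DPB2 were at 0 in all libraries and 3 were tested. All 3 passed, 1 as higher and 2 as lower in Rec-1, where 12.6% and 13.1% of all genes did. The list was chosen with earlier results of these data known. HLA-DRB5, an additional HLA-DR beta chain gene, had 15.6, 14.5 and 13.7 FPKM in the Jeko control, sgRNA 1 and sgRNA 2 and 14.03 in the Rec-1 control. Rec-1 sgRNA 1 and 2 had 107 and 76.0 FPKM. The line difference was 2.597 (SE 0.23, limma adjusted p = 0.00504). HLA-DRB3, another such gene, went the other way, with 31.2, 28.3 and 26.5 FPKM in Jeko and 29.7, 5.26 and 7.43 FPKM in the Rec-1 control, sgRNA 1 and sgRNA 2 (difference -1.97, SE 0.23, limma adjusted p = 0.00974). It passed in 1 of the 4 fits that left out a library, where HLA-DRB5 passed in all 4. The pseudogene HLA-DRB6 had 4.91, 3.57 and 3.67 FPKM in Jeko and 4.46, 0 and 0.109 FPKM in the Rec-1 control, sgRNA 1 and sgRNA 2 (difference -2.13, SE 0.12, limma adjusted p = 0.0016).

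Which HLA-DRB genes a person carries beside HLA-DRB1 varies with the HLA haplotype, so the split among these near-identical genes is uncertain. The sum of HLA-DRB1, HLA-DRB3 and HLA-DRB5 was less uneven than HLA-DRB3 or HLA-DRB5 alone and more uneven than HLA-DRB1 alone. It was highest in Rec-1 sgRNA 1 and 2. HLA-DRB1, HLA-DRB3 and HLA-DRB5 together had 109, 92.5 and 88.0 FPKM in Jeko, against 96.2, 171 and 140 FPKM in the Rec-1 control, sgRNA 1 and sgRNA 2. HLA-DRB1 made up 53.7% to 57.2% of the sum in the first 4 libraries and 34.5% and 40.5% in Rec-1 sgRNA 1 and 2. HLA-DRB5 made up 14.2% to 15.7% of it in the first 4, and 62.4% and 54.2% in the last pair. The Rec-1 control therefore had the composition of the Jeko libraries. Its ratio of HLA-DQA1 to HLA-DQB1, 1.06, was nearer to Rec-1 sgRNA 1 and 2 (0.766 and 1.00) than to the Jeko libraries (1.67 to 2.10).

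**Figure D4:**
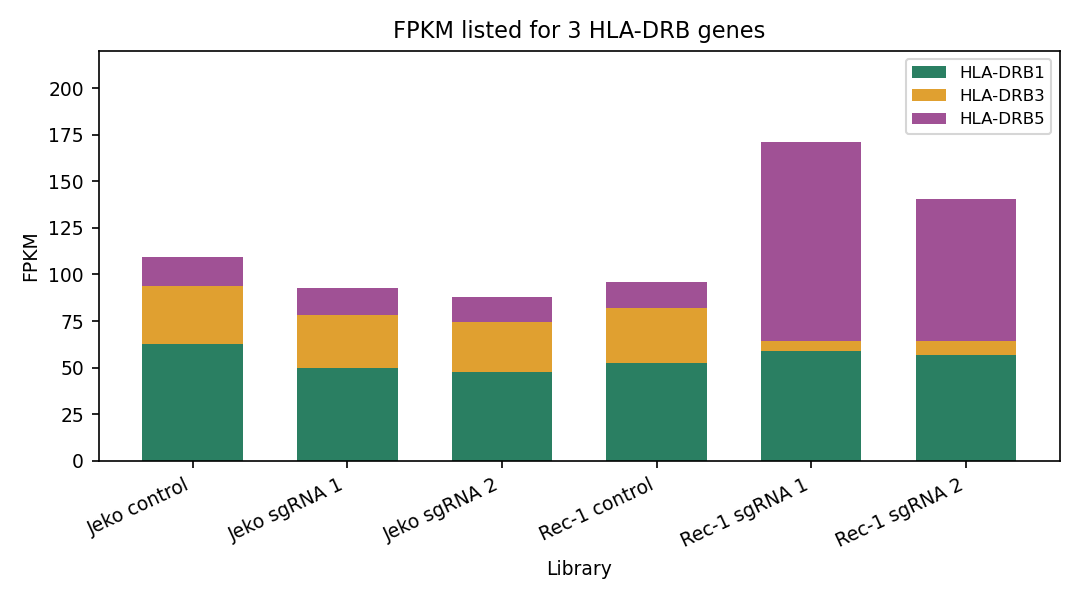
FPKM listed for HLA-DRB1, HLA-DRB3 and HLA-DRB5, stacked, in each of the 6 libraries. The Jeko libraries and the Rec-1 control show the same order of the 3 genes, with totals of 88.0 to 109 FPKM, and Rec-1 sgRNA 1 and 2 are made up mostly of HLA-DRB5, with totals of 171 and 140 FPKM.

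The second comparison followed the labels' own contrast, the NR4A1 sgRNA against the control of the same line. No member passed it, and no member rose or fell alike in all 4 sgRNA libraries. CIITA differed from its control by 0.25 and -0.18 in Jeko sgRNA 1 and 2, and by -0.77 and -1.04 in Rec-1 sgRNA 1 and 2. CD74 differed by 0.31, -0.28, -0.17 and -0.96 in the same order. HLA-DQA1 was above its control in both Jeko libraries (0.36 and 0.50) and below it in both Rec-1 libraries (-0.53 and -0.39). HLA-DRB1 showed the opposite, with -0.33 and -0.38 in Jeko against 0.17 and 0.11 in Rec-1. HLA-DQB1 differed by 0.04 and 0.42 in Jeko, against -0.07 and -0.31 in Rec-1.

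Over both lines, with the line as covariate, limma called 0.246% of genes (28 of 11400) and 0 of 5 members, and 0 members had an unadjusted p under 0.05. The fitted effect was -0.44 for CIITA (SE 0.29, limma adjusted p = 0.375), -0.28 for CD74 (SE 0.31, limma adjusted p = 0.598), -0.11 for HLA-DRB1 (SE 0.20, limma adjusted p = 0.749), -0.02 for HLA-DQA1 (SE 0.26, limma adjusted p = 0.974) and 0.02 for HLA-DQB1 (SE 0.22, limma adjusted p = 0.964). The 95% intervals were wide, from -1.15 to 0.28 for CIITA and from -1.05 to 0.50 for CD74, so changes of a size near 2-fold lower lie within them. Without the Rec-1 control, the Rec-1 sgRNA libraries had no control to be set against, and the fitted effect was that of Jeko alone. It was 0.03 for CIITA, 0.01 for CD74, -0.36 for HLA-DRB1, 0.43 for HLA-DQA1 and 0.23 for HLA-DQB1.

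Within a line there was 1 control, so a change was counted, without a test, where both sgRNA libraries lay 2-fold or more from it on the same side. This held for 3.04% of the 11400 genes in Jeko and for 23.3% in Rec-1, and for 0 of the 5 members in either. CIITA in Rec-1 came nearest, past 2-fold in Rec-1 sgRNA 2 and short of it in sgRNA 1. The larger share in Rec-1 rests on the control that correlated best with Jeko.

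**Figure D5:**
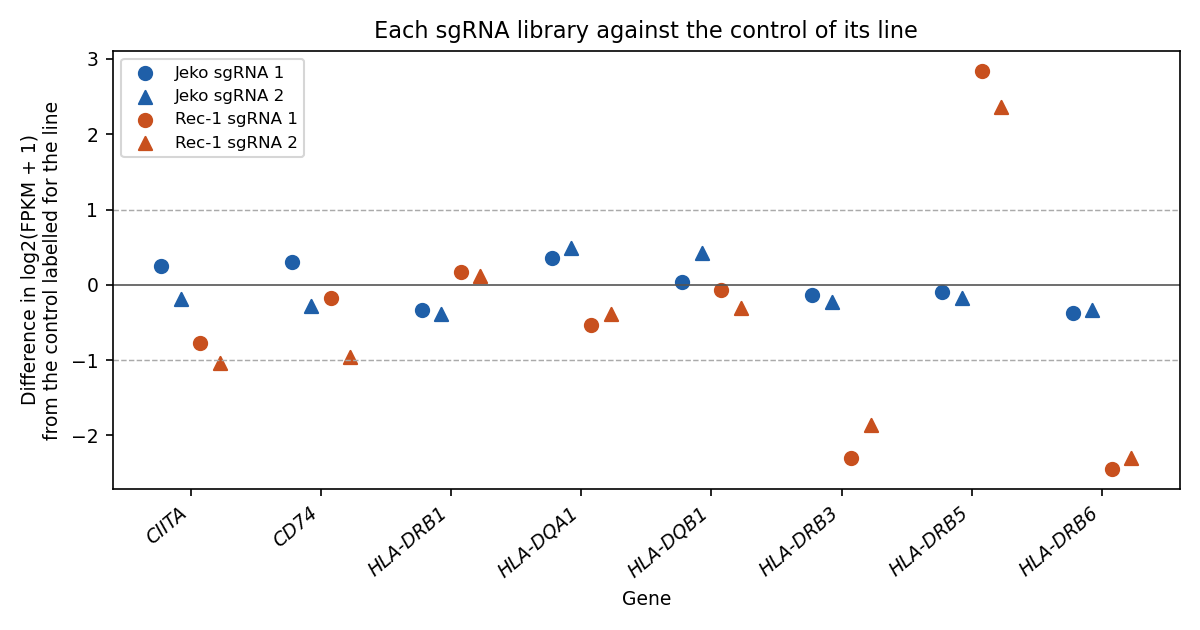
Difference in log2(FPKM + 1) of each sgRNA library from the control labelled for its line, with Jeko in blue, Rec-1 in orange, circles for sgRNA 1 and triangles for sgRNA 2, for the 5 tested members and 3 further HLA-DRB genes. Dashed lines mark 2-fold. Among the members, 1 point, CIITA in Rec-1 sgRNA 2, passes a dashed line, while the HLA-DRB3, HLA-DRB5 and HLA-DRB6 points of Rec-1 lie beyond it.

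Whether the sgRNA difference itself differed between the lines was tested as an interaction, Rec-1 minus Jeko. It was called for 6.94% of all genes and for 0 of 5 members, of which 1, HLA-DQA1, had an unadjusted p under 0.05. The values were -0.94 for CIITA (SE 0.41, limma adjusted p = 0.287), -0.58 for CD74 (SE 0.64, limma adjusted p = 0.648), 0.50 for HLA-DRB1 (SE 0.29, limma adjusted p = 0.398), -0.89 for HLA-DQA1 (SE 0.31, limma adjusted p = 0.213) and -0.42 for HLA-DQB1 (SE 0.39, limma adjusted p = 0.59). Among the other class II genes, HLA-DRB5 (2.74, SE 0.41, limma adjusted p = 0.0399) and HLA-DRB6 (-2.02, SE 0.24, limma adjusted p = 0.0256) passed. Neither passed when any 1 sgRNA library was left out, with limma adjusted p of 0.0776 to 0.172 for HLA-DRB5 and of 0.0725 to 0.0896 for HLA-DRB6. HLA-DRB3 did not pass (-1.90, limma adjusted p = 0.0785). Both lines' controls are single libraries, and the fit cannot be made without the Rec-1 control.

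The factors that hold CIITA at class II promoters were all measured. RFX5, RFXAP and RFXANK form the RFX complex on the X box, NFYA, NFYB and NFYC form NF-Y on the Y box, and CREB1 binds beside RFX. Of these 7 genes, 1 passed as lower and 0 as higher in Rec-1 than in Jeko sgRNA libraries, where 13.1% and 12.6% of all genes did, so 1 gene is no more than the background. The list median was -0.41 against -0.03 for all genes. The lower gene was RFX5, the DNA-binding subunit, with 71.9, 68.4 and 75.1 FPKM in the Jeko control, sgRNA 1 and sgRNA 2, against 65.9, 17.9 and 25.9 FPKM for the same libraries of Rec-1. Its difference was -1.69 (SE 0.24, limma adjusted p = 0.0163), and it passed in 0 of the 4 fits that left out a library (limma adjusted p = 0.0505 to 0.0948). RFX5 thus had the same low libraries as CIITA.

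Its partners showed other values, with line differences of 0.24 for RFXAP (limma adjusted p = 0.402) and 0.43 for RFXANK (limma adjusted p = 0.198). RFXAP had 15.2, 7.59 and 8.73 FPKM in Jeko, against 13.1, 8.97 and 10.8 FPKM in Rec-1, in the order control, sgRNA 1 and sgRNA 2. RFXANK had 51.7, 28.9 and 33.2 FPKM in Jeko, against 61.0, 37.4 and 47.0 FPKM in Rec-1. Both were below the control of their line in all 4 sgRNA libraries, by -0.61 (limma adjusted p = 0.204) and -0.63 (limma adjusted p = 0.202) in the fit over both lines, and neither passed. No gene of this list or of the lists that follow passed the test of the sgRNA over both lines.

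Of 15 genes known to regulate CIITA or its response to interferon, all were tested, and 3 passed as higher and 4 as lower in the Rec-1 sgRNA libraries, beside 12.6% and 13.1% of all genes. The list median was -0.34 against -0.03 for all genes. The higher genes were IRF8 (2.43, SE 0.51, limma adjusted p = 0.0384) and SPI1 (1.91, SE 0.35, limma adjusted p = 0.0278), which encode factors of B and myeloid cells, and IFNGR1 (1.31, SE 0.27, limma adjusted p = 0.0382), which encodes a chain of the interferon gamma receptor. IRF8 had 5.23 and 15.4 FPKM in Jeko sgRNA 1 and 2 and 55.2 and 51.8 in Rec-1 sgRNA 1 and 2. SPI1 had 17.5 and 13.9 FPKM in the former and 82.1 and 45.8 in the latter. Among the lower genes were IRF4 (-1.65, SE 0.25, limma adjusted p = 0.0184) and PRDM1 (-1.496, SE 0.19, limma adjusted p = 0.0129), factors of plasma cell differentiation, of which PRDM1 is known to repress CIITA. JAK1, a kinase of interferon signalling, differed by -1.03 (SE 0.16, limma adjusted p = 0.0202), and CREBBP, a histone acetyltransferase that works with CIITA, by -1.51 (SE 0.17, limma adjusted p = 0.0096). The called regulators thus lay on both sides. When 1 library was left out, IRF8 passed in 2 of 4 fits, IRF4 and PRDM1 in 1, and SPI1, IFNGR1, JAK1 and CREBBP in 0.

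CREBBP was also described against its own controls, with 7.57, 13.0 and 14.1 FPKM in the Jeko control, sgRNA 1 and sgRNA 2 against 7.33, 4.001 and 4.22 FPKM in Rec-1. The controls were alike and the sgRNA libraries lay on opposite sides of them, as for HLA-DQA1, although the interaction of -1.47 (SE 0.27, limma adjusted p = 0.0636) did not pass.

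Of 11 symbols listed for antigen processing, 7 were tested. CTSL, of which CTSL1 is an older name, was listed at 0 in all libraries, and MARCH1 and MARCH8 were not matched, since names of that form are stored as dates in the table. In the line comparison 1 of the 7 passed as higher and 0 as lower, a share no larger than the 25.7% of all genes, with a list median of 0.14 against -0.03. The higher gene was CD63, a tetraspanin of late endosomes (0.95, SE 0.20, limma adjusted p = 0.0396), which passed in 0 of the 4 fits that left out a library and not after adjustment for transcript length. IFI30, the thiol reductase that opens antigens in endosomes, had 172 to 266 FPKM across the libraries, with a line difference of 0.11 (limma adjusted p = 0.627).

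The genes whose pattern was most like that of CIITA over the 6 libraries were AARS2 (r = 0.999), CAD (0.998), MCM7 (0.997), POLE (0.996) and PAXIP1 (0.996), out of 6199 tested genes that spanned at least 1 on the log2 scale. They encode a mitochondrial alanyl-tRNA synthetase, a pyrimidine synthesis enzyme, a subunit of the replicative helicase, a DNA polymerase and a DNA damage response protein. AARS2 had 7.73, 9.57 and 6.88 FPKM in the Jeko control, sgRNA 1 and sgRNA 2, against 6.31, 3.47 and 2.69 FPKM in Rec-1. Among the members, r with CIITA was 0.94 for CD74 (rank 573), 0.85 for HLA-DQA1 (rank 1419), -0.25 for HLA-DQB1 and -0.39 for HLA-DRB1. RFX5 had r = 0.90 (rank 988). These r are descriptions over 6 libraries that share the same low pair, Rec-1 sgRNA 1 and 2.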

How the data were processed

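The authors deposited 1 table of FPKM for 6 libraries, already scaled by them for library size and transcript length, per the file headers. Per the submitters' processing notes, TopHat and hg19 were used. The program that computed FPKM, its annotation and its treatment of strand and of fragments with several matches are not given in the sources used here. FPKM summed to 905778 to 1160107 per library, and 15478 to 16150 genes were above 0. MIR6723 and MIR4461 together made up 21.6% to 36.9% of the sums.

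Values were analysed as log2(FPKM + 1) by the functions lmFit and eBayes (with trend) of limma 3.58.1 under R 4.3.3. Genes averaging 1 FPKM or more, 11400 in all, were tested, with Benjamini-Hochberg adjustment over all of them. Because FPKM are not counts, no count model was used. The line difference was fitted on the 4 sgRNA libraries, the sgRNA effect on all 6 with the line as covariate, and the interaction on 4 groups of line and treatment. Guides were the replicates. The fits were tested on simulated data. Coordinates come from GENCODE v44 on GRCh37, the build of hg19, matched by symbol for 21477 rows. Promoters come from RefSeq on GRCh38.p14, and coordinates of the builds were not mixed. Python 3.11.15 with pandas 2.3.3, numpy 2.4.6 and matplotlib 3.10.9 did the rest.

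The members and the gene lists were chosen with earlier results of these data known. All members are named, with list genes past the threshold and the 5 genes most correlated with CIITA. The list of genes of the MHC region used by most cells and the region's bounds were chosen after their values were seen. So was the naming of HLA-DRB3, which passed the line comparison but not the interaction, and of IFI30, RFXAP and RFXANK, which passed neither. CREB1, IRF1, IRF2 and CTSB passed neither and are named below for opposite directions in the lines. Alternatives covered pseudocount, filter on low values, scaling, small RNA genes, guide number, transcript length, the variance trend and each library left out.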

Additional observations from a re-analysis of the deposited data

Results flagged for a closer look

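Among the members and the 4 lists of class II, promoter-binding, CIITA-regulating and antigen-processing genes, the difference between sgRNA and control differed between the lines for 2 genes by the interaction test (Rec-1 minus Jeko, log2 scale, limma). HLA-DRB5 had 2.74 (SE 0.41, limma adjusted p = 0.0399) and HLA-DRB6 had -2.02 (SE 0.24, limma adjusted p = 0.0256). Of the cell type markers, CCND1 (-8.24), SDC1 (-2.97), CD3D (6.24), CD3E (2.90) and ITGAX (2.46) passed too, with limma adjusted p of 0.00853 to 0.0406. All of these rest on the library labelled Rec-1 control, which correlated better with Jeko than with the other Rec-1 libraries, and its part was not tested. Over all genes tested, 6.94% passed the interaction test.

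For 14 further genes of the same sets both sgRNA libraries of a line lay on one side of its control and both of the other line on the opposite side, without passing the interaction test. The share of all genes tested with this pattern was not counted, so the number 14 is no result about these sets. The members among the 14 genes were HLA-DRB1 with 0.50 (SE 0.29, limma adjusted p = 0.398), HLA-DQA1 with -0.89 (SE 0.31, limma adjusted p = 0.213) and HLA-DQB1 with -0.42 (SE 0.39, limma adjusted p = 0.59). Among the regulators of CIITA, SPI1 had 2.04 and IFNGR1 1.26, while PRDM1 had -1.43, IRF1 -1.27, IRF2 -0.97, JAK1 -1.17 and CREBBP -1.47, with limma adjusted p from 0.0636 for CREBBP to 0.528 for IRF2. CREB1, which binds class II promoters, had -0.58 (limma adjusted p = 0.333). Of the antigen processing genes, CTSB had -1.30, IFI30 -0.51 and CD63 0.99, with limma adjusted p of 0.229 to 0.391.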

How the results depend on the processing

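Across 9 alternatives of scaling, filter, pseudocount, small RNA genes, guide number, length and variance trend, CIITA and HLA-DQA1 passed the line comparison in all 9. Leaving out each library left 0 members called, and the count over all genes fell from 2933 to between 847 and 1253, with 1529 at a mean of at least 5 FPKM. When guide number was used as a replicate block, CD74 also passed (-1.08, limma adjusted p = 0.0384), 9 genes passed for the sgRNA and 428 for the interaction, where HLA-DRB5 (limma adjusted p = 0.0588) and HLA-DRB6 (0.0627) did not. The guide 2 minus guide 1 differences of the lines correlated at r = 0.10 across 11400 genes, and the numbers are not known to pair the libraries. HLA-DRB5 also missed the interaction threshold with no filter (0.0704) and at a mean of at least 5 FPKM (0.0577), and HLA-DRB3 passed it after rescaling without small RNA genes (0.0382).

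For the sgRNA over both lines, limma called 12 genes without a filter, 14 after length adjustment and 0 after rescaling without small RNA genes (2464 at an unadjusted p under 0.05). Leaving out each library gave 11 to 2180, the latter without the Jeko control and 51 without the Rec-1 control. The interaction gave 318 genes at 5 FPKM and 75 to 454 with a library left out, lowest without Jeko sgRNA 2. It could not be fitted without either control. Genes past the fold within Jeko were 580 with a pseudocount of 0.1, 1292 at 1.5-fold, 206 after length adjustment and 705 to 853 with 1 guide. Within Rec-1 they were 4609 at 1.5-fold, and 1 member, CIITA, passed at 1.5-fold, with 0 to 1 members at 2-fold with 1 guide. The cause was not tested, beyond the looser fold and the fewer libraries of these settings.

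Small differences of members changed sign. In the line comparison HLA-DQB1 went to -0.0489 after length adjustment and ranged from -0.16 to 0.22 with a library left out. For the sgRNA, leaving out a library gave -0.91 to 0.0321 for CIITA, -0.57 to 0.0138 for CD74, -0.36 to 0.14 for HLA-DRB1, -0.46 to 0.43 for HLA-DQA1 and -0.19 to 0.23 for HLA-DQB1. Both ends of each range came from leaving out a control, so each end is the effect in a single line. Without the Jeko control that line was Rec-1, and without the Rec-1 control it was Jeko. HLA-DRB1 was 0.13 after length adjustment, HLA-DQA1 was 0.0440 with quantile normalization, 0.0628 after rescaling and 0.22 after length adjustment, and HLA-DQB1 was -0.0740 after centring. Depth is unknown, so no value at 0 can be given a limit.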
